A study of Mus musculus with 2 samples.

Results

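The integrin and laminin chain genes measured here are 37 genes of mouse, 26 integrin chains and 11 laminin chains, out of 29875 gene names on the array. The gene families were picked with earlier results of these data known, and within them each member was taken by name, not by its value, as every probe whose gene symbol is a whole integrin alpha, integrin beta or laminin chain symbol, which gave 51 probes; the beta-2-like gene Itgb2l was not taken. Gene expression was measured in dissected ureters of E14.5 embryos of the NMRI strain on 2 two-colour arrays. Each array paired RNA of embryos with the genotype Pax-cre/+;Smad4(fl/fl), named Pax2-cre/+;Smad4(fl/fl) in the series title, with RNA of controls labelled Smad4(fl/?). Array 1 carried female RNA with the knockout in Cy3 and the control in Cy5, and array 2 carried male RNA with the dyes exchanged. All 4 samples were therefore floxed for Smad4 on at least 1 allele as labelled, the second allele of the controls is left as a question mark in the labels, and only the knockout genotype lists the Cre. Pax2-cre is known as a driver active in the nephric duct and the ureteric epithelium that derives from it, and the RNA came from dissected ureters with no sorting of cell types stated. The sources used here do not give how many embryos each sample pooled.

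Laminins are secreted trimers of an alpha, a beta and a gamma chain that form the sheet of the basement membrane beneath epithelia and around muscle, nerve and vessels. Integrins are membrane receptors made of an alpha and a beta subunit; the pairing sets whether they bind laminin, collagen, or ligands with the RGD tripeptide such as fibronectin and nephronectin. In the urinary tract laminins separate the urothelium from the mesenchyme, and in stratified epithelia laminin-332 and the receptor of the integrin alpha 6 and beta 4 chains anchor basal cells.

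Of the 37 genes, 31 gave a signal above background and were tested, all 11 laminin chains and 20 of the 26 integrin chains. None of the 31 passed the test across all 20104 genes (limma, adjusted p of at least 0.122), whereas 46 genes (0.229%) passed as higher and 20 (0.0995%) as lower in labelled knockout. At an unadjusted p under 0.05 there were 10 members, or 32.3%, beside 4.55% of all genes. By size, 4 members (12.9%), Lama3, Lamb3, Itga3 and Itgb6, had a log2 ratio of at least 0.32 on each array, the size limit used throughout, beside 0.861% of all genes. Only 1 member (3.23%), Lama1, was as far below 0 on each array, beside 0.557% of all genes. The median log2 ratio of knockout over control was -0.0313 over the 31 members, -0.01 over the integrins and -0.13 over the laminins, beside -0.00438 over all genes. On both arrays 10 members (32.3%) were above 0, beside 21.7% of all genes, and 10 (32.3%) were below 0, beside 24.6%. The other 11 pointed opposite ways.

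**Figure D1:**
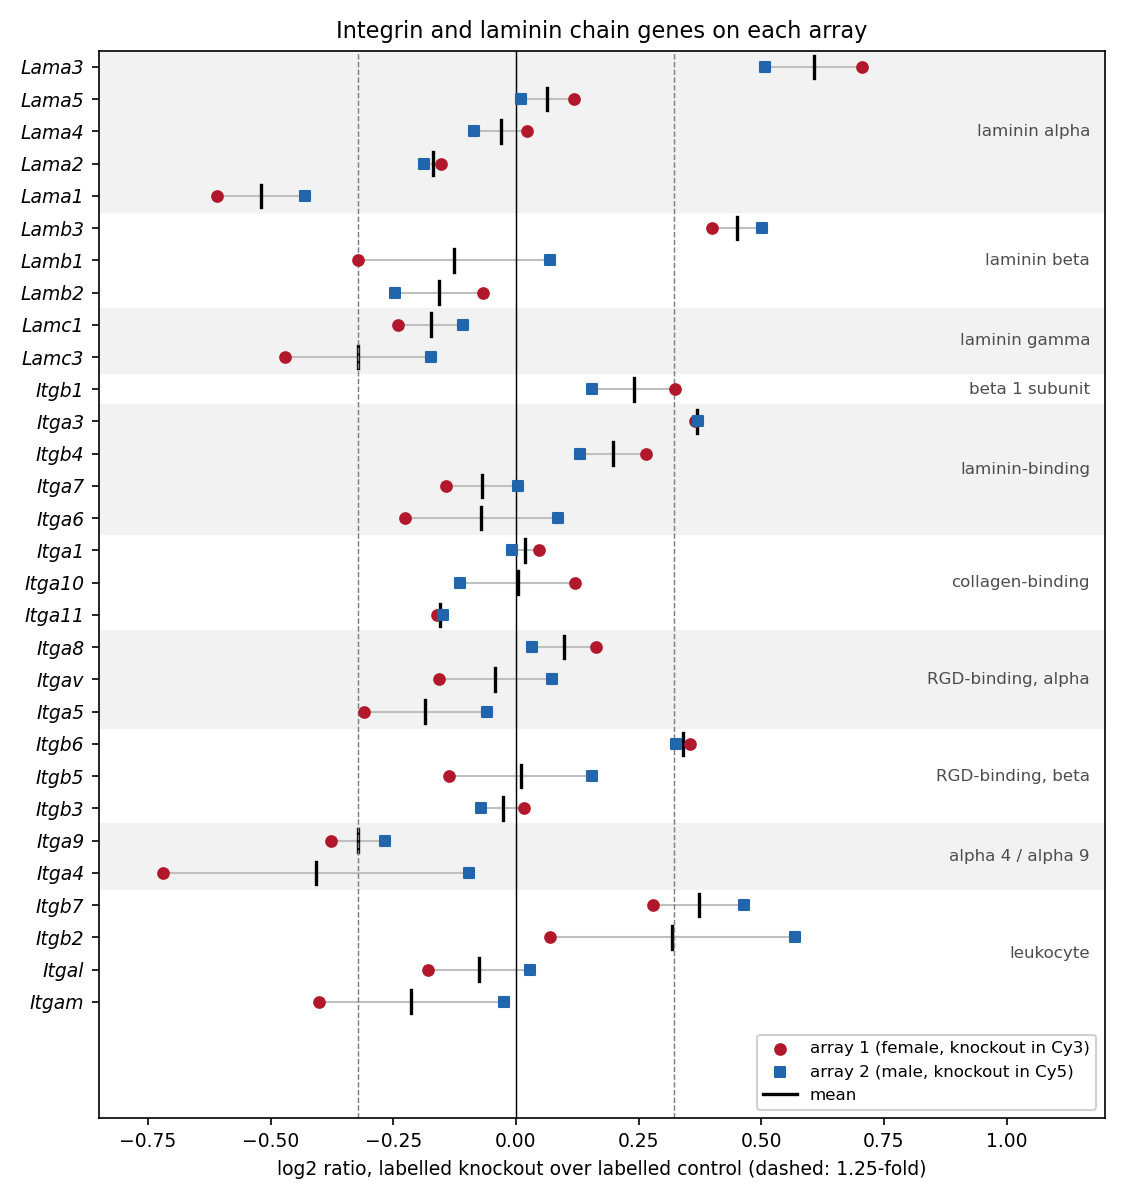
Log2 ratio of labelled knockout over labelled control for 30 of the 31 tested integrin and laminin chain genes, grouped by role, on array 1 (circles) and array 2 (squares), with the mean as a bar and dashed lines at the size limit of 0.32 in either direction. Lama3, Lamb3, Itga3 and Itgb6 lie beyond the right line on both arrays and Lama1 beyond the left one.

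Directions follow the dyes given in the labels. The authors' deposited table, a signed fold per probe, has the opposite sign when its titles are taken to mean knockout over control: in the authors' deposited table Lama3 is at -1.82 on array 1 and -1.50 on array 2, and Lama1 at 1.52 and 1.35. Smad4 itself had log2 ratios of -0.58 on array 1 and -0.08 on array 2 (mean -0.33 ± 0.36, SD, n = 2 arrays, limma adjusted p = 1.00). Its probe was not placed relative to the floxed exons, so Smad4 does not settle the direction. If every sign were turned, the members named as higher and lower would change places, with the same sizes and tests.

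Lama3 encodes the alpha 3 chain, which occurs in laminin-332, the anchoring laminin of stratified epithelia, and had the largest ratio of all 31 members. Its normalised log2 intensity was 9.40 in the knockout and 8.69 in the control channel of array 1, and 9.08 and 8.57 on array 2. Both knockout channels were above both control channels. The difference was 1.52-fold, a log2 ratio of 0.61 ± 0.14 (SD, n = 2 arrays; 95% interval of limma 0.33 to 0.88, adjusted p = 0.122). The probe lies at mm9 chr18:12741458-12741517, and a second probe for the same transcript at chr18:12741067-12741126 read 0.39 on array 1 and 0.46 on array 2. Lama3 passed the test in 5 of 10 alternative settings, with adjusted p from 0.0265 to 1.00 over all of them.

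Lamb3 encodes the beta 3 chain, which is characteristic of laminin-332. It measured 11.19 in knockout and 10.79 in control on array 1, and 10.85 and 10.35 on array 2, in normalised log2 intensity. Again each knockout channel was above both control channels, by a log2 ratio of 0.45 ± 0.07 (SD, n = 2, 1.37-fold, limma adjusted p = 0.342). The probe is at mm9 chr1:195170009-195170068.

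Basal epithelial keratin and transcription factor markers (Krt5, Krt14, Krt15 and Trp63 tested, Krt17 not above background) had a median of -0.06 on array 1 and 0.42 on array 2, whereas Lama3 read 0.71 and 0.51 and Lamb3 0.40 and 0.50. The part of the basal markers in these values was not tested.

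Lama1, the alpha 1 chain of early embryonic basement membranes and of kidney tubules, was the member furthest in the other direction. It measured 12.18 in knockout and 12.79 in control on array 1, and 12.10 and 12.53 on array 2, so that both knockout channels were below both control channels. The log2 ratio was -0.52 ± 0.13 (SD, n = 2, 1.43-fold higher in labelled control, 95% interval -0.79 to -0.25, limma adjusted p = 0.221). Its probe is at mm9 chr17:68171924-68171983. In whole-tissue RNA such a value cannot tell fewer cells of a type from less RNA per cell, and the same holds for each gene here.

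**Figure D2:**
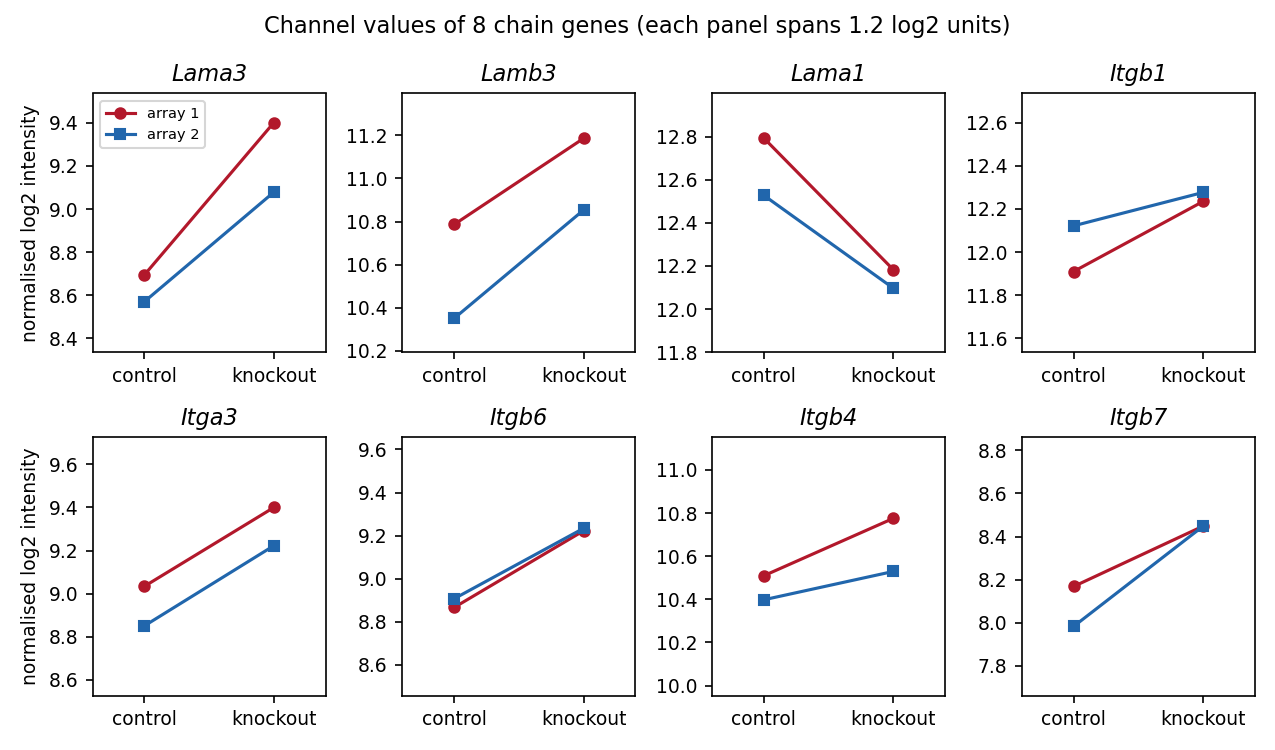
Normalised log2 intensity of 8 chain genes in the control and knockout channel of each array, joined by a line per array; every panel spans 1.2 log2 units, and heights are not comparable between genes. The lines of Lama3, Lamb3, Itga3, Itgb6, Itgb4, Itgb1 and Itgb7 slope up on both arrays and those of Lama1 slope down.

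The laminin chains below had mean log2 ratios closer to 0 than Lama3, Lamb3 and Lama1, with Lamc3 the furthest from 0 among them. Lamb1 and Lamc1, the partners shared by most embryonic laminins, had log2 ratios of -0.32 on array 1 and 0.07 on array 2, and of -0.24 and -0.11. Lamb2, the beta chain of mature basement membranes, read -0.07 and -0.25, and Lama2, the alpha chain of muscle and mesenchyme, -0.15 and -0.19. Lama5, the main alpha chain of epithelial basement membranes, read 0.12 and 0.01, and Lama4, an alpha chain of vessel walls, 0.02 and -0.09. Lamc3 read -0.47 and -0.17, a mean of -0.32 ± 0.21 (SD, n = 2, adjusted p = 0.975). The 11 laminin chains had a median of -0.13, with Lama3 and Lama1, both alpha chains, at its ends.

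Among the laminin-binding integrins, Itga3 had nearly the same value on both arrays. This subunit pairs with beta 1 and binds laminin-332 and the alpha 5 laminins. Its normalised log2 intensity was 9.40 in knockout and 9.03 in control on array 1, and 9.22 and 8.85 on array 2. The ratio was 0.37 on each array (mean 0.37 ± 0.00427, SD, n = 2, 1.29-fold, limma adjusted p = 0.638), with the probe at mm9 chr11:94906334-94906393. Itgb4, the hemidesmosomal beta 4 subunit, measured 10.78 and 10.51 on array 1 and 10.53 and 10.40 on array 2 in knockout and control. Its knockout channels were both above its control channels, by a log2 ratio of 0.20 ± 0.10 (SD, n = 2, 95% interval -0.07 to 0.47, adjusted p = 1.00).

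Itga6, the alpha 6 partner of beta 4, depended on the probe. The brighter probe, for transcript NM_008397 at mm9 chr2:71694756-71694815, measured 14.02 and 14.25 on array 1 and 14.11 and 14.03 on array 2 in knockout and control. Its ratios were -0.23 and 0.09, of opposite sign. The other probe, designed on transcript ENSMUST00000139760 at chr2:71690633-71690692, read 0.30 and 0.28. Itga7, a laminin receptor of muscle, measured 8.95 and 9.09 on array 1 and 8.97 and 8.97 on array 2, with ratios of -0.14 and 0.00479.

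Itgb1, the beta 1 subunit shared by most of these receptors, measured 12.23 in knockout and 11.91 in control on array 1, and 12.28 and 12.12 on array 2. Its channels did not overlap between genotypes, with a log2 ratio of 0.24 ± 0.12 (SD, n = 2, 95% interval -0.03 to 0.51, limma adjusted p = 1.00). A second probe at mm9 chr8:131246349-131246408 read 0.01 on array 1 and 0.17 on array 2, so the array 1 value of the brighter probe was not repeated by it. The brighter probe covers an exon junction, since its 60 bases span 5896 bases of the genome at chr8:131250081-131255976.

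Itgb6 encodes the epithelial beta 6 subunit, which pairs with alpha v and is known to release active TGF-beta from its latent complex. It measured 9.22 in knockout and 8.87 in control on array 1, and 9.23 and 8.91 on array 2. The arrays gave 0.36 and 0.33, a mean of 0.34 ± 0.02 (SD, n = 2, 1.27-fold, limma adjusted p = 0.787), so array 2 lay just beyond the size limit. The value comes from 1 probe, which also crosses an exon junction (60 bases over 4616 bases at mm9 chr2:60438632-60443247); the other Itgb6 probe was well above background in none of the 4 channels. The brighter Itga1 probe also covers a junction (60 bases over 1655 bases) and is not shown. The Itgb6 and Itgb1 probes are shown as examples because their sequence is spliced and so reads processed transcript, 5′ to 3′.
Itgb6 probe: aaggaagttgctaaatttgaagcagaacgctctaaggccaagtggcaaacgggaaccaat
Itgb1 probe: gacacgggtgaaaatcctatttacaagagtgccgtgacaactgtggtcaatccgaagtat

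Itgav, the partner of beta 6, measured 9.62 and 9.78 on array 1 and 9.67 and 9.60 on array 2 in knockout and control, with ratios of -0.16 and 0.07 and overlapping channels. Itgb8, which forms the other latent TGF-beta receptor with alpha v, was not well above background in any channel. Itgb5 read -0.14 and 0.15, and Itgb3, the beta subunit of the vitronectin receptor and of platelets, 0.02 and -0.07.

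Itga8 is the alpha subunit of the nephronectin receptor on mesenchyme that is required for ureteric bud outgrowth. It measured 13.21 and 13.05 on array 1 and 13.07 and 13.03 on array 2 in knockout and control. The ratio was 0.10 ± 0.09 (SD, n = 2, limma adjusted p = 1.00) with a 95% interval from -0.17 to 0.37, which includes values of either sign. Its ligand gene Npnt read 0.25 and 0.29, in the same direction on both arrays and also without passing (mean 0.27). Itga5, the fibronectin receptor subunit, read -0.31 and -0.06, and the fibronectin gene Fn1 -0.56 and -0.09.

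The collagen receptors lay close to 0. Itga1 read 0.05 and -0.00885, Itga10, an alpha chain of cartilage, 0.12 and -0.11, and Itga11, a receptor of fibroblasts for fibrillar collagen, -0.16 and -0.15. Itga11 was therefore lower in labelled knockout by a like amount on both arrays, with a 95% interval of -0.42 to 0.11 around its mean of -0.15. Itga2 was well above background in 2 of 4 channels, the Cy3 channel of each array, and was not tested.

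Itga4 and Itga9, related alpha subunits that bind VCAM1, fibronectin or tenascin, were lower in labelled knockout on both arrays. Itga4 read -0.72 on array 1 and -0.10 on array 2 (mean -0.41 ± 0.44, SD, n = 2, limma adjusted p = 0.924), so its mean rests mostly on array 1. The other Itga4 probe was not well above background in any channel, so the value comes from a single probe. Itga9 read -0.38 and -0.27 (mean -0.32 ± 0.08, SD, n = 2, adjusted p = 0.909), with less spread between arrays. The tenascin gene Tnc read -0.10 and -0.02, and Vcam1 0.14 and -0.15.

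Integrins of white blood cells were mixed. Itgb7, which pairs with alpha 4 or alpha E on lymphocytes, read 0.28 and 0.46 (mean 0.37 ± 0.13, SD, n = 2, 1.29-fold, limma adjusted p = 0.668), and was beyond the size limit on each array in 4 alternative settings. Itgb2, the shared beta subunit of leukocyte integrins, read 0.07 and 0.57, and its partner Itgal -0.18 and 0.03. The normalised log2 intensity of Itgb2 was low, 7.38 and 7.90 in knockout and 7.32 and 7.33 in control. Its mean log2 ratio ran from 0.31 to 0.55 over the main and alternative settings with a test. Markers of macrophages and other leukocytes (11 of 12 tested, Fcgr1 not above background) had a median log2 ratio of 0.08 on array 1 and 0.09 on array 2. Of these, 4 (36.4%) were above 0 on both arrays, beside 21.7% of all genes, and 0 were below 0 on both, beside 24.6%. The 11 markers ran from -0.05 to 0.27 on array 1 and from -0.19 to 0.60 on array 2. Their mean normalised log2 intensity was 9.84 and 10.08 in the knockout channels and 9.75 and 9.93 in the control channels. Their part in the values of Itgb7 and Itgb2 was not tested. Itgad, Itgae and Itgax, alpha subunits of leukocytes, were not well above background in any channel.

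Itgam, the alpha M subunit of myeloid cells, read -0.40 and -0.02 with its brightest probe, and the other probes read -0.04 and -0.01, and -0.08 and 0.20. The brightest probe, at mm9 chr7:135261755-135261814, opens with an alternating stretch of 20 bases, which is shown in capitals in its first 30 bases because such repeats also occur elsewhere in transcripts, so this value is uncertain.
Itgam probe, first bases: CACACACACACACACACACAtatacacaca

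Itga2b, the alpha IIb subunit of platelets, was well above background in 1 of 4 channels, the knockout channel of array 1, and was not tested. Of 6 platelet genes 4 were above 0 on both arrays, with a median over the 6 of 0.44 and 0.48, and Ppbp passed the test as higher (0.68 and 1.01, adjusted p = 0.0275). Itgb3, its platelet partner, read 0.02 and -0.07, and the part of platelet RNA in these values was not tested. Counting the genes above, 6 of the 37 members, Itga2, Itga2b, Itgad, Itgae, Itgax and Itgb8, had no tested value.

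Channels of the 2 genotypes did not overlap for 13 of the 31 members (41.9%), 9 higher and 4 lower in labelled knockout, beside 29.2% of all genes. Of the 11 members with opposite signs, 7 were brighter in Cy5 on both arrays and 4 brighter in Cy3. Because sex and dye both switch from array 1 to array 2, their effects on these signs cannot be told apart.

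**Figure D3:**
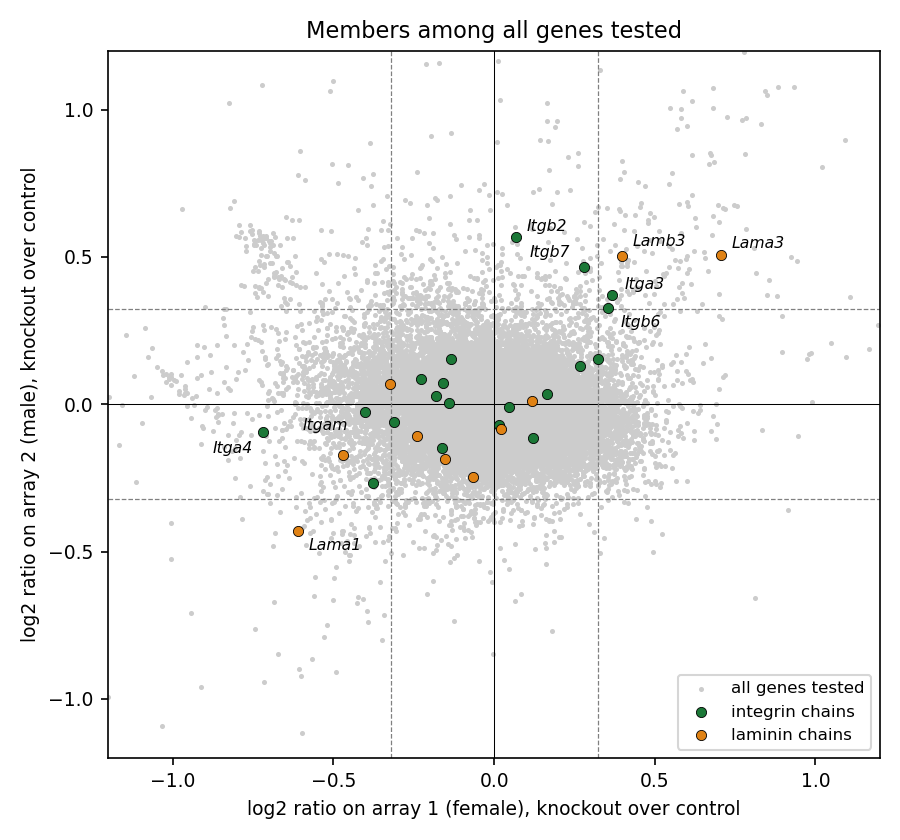
Log2 ratio on array 1 against array 2 for all 20104 genes tested (grey), integrin chains (green) and laminin chains (orange), with dashed lines at the size limit; 66 genes lie beyond the axis range of 1.2. Lama3, Lamb3, Itga3 and Itgb6 fall in the upper right corner field and Lama1 in the lower left one, while Itgb2 is displaced on array 2 and Itga4 on array 1.

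For 10 members more than 1 probe was above background, and in 4 of these all probes had the same sign of the mean. These were Itgav, Itgb1, Lama2 and Lama3. Lama2 read -0.33 and -0.13 with its second probe beside -0.15 and -0.19 with the first. The probes of Itga1, Itga10, Itga6, Itgal, Itgam and Itgb3 split around 0.

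**Figure D4:**
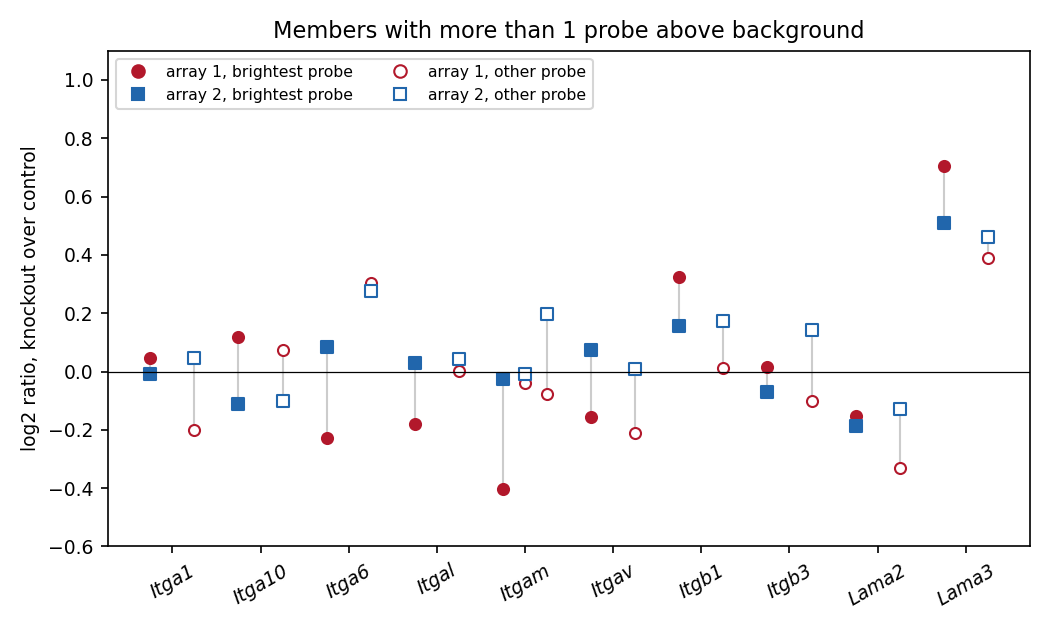
Log2 ratio of each probe above background for the 10 members with several such probes, on array 1 (circles) and array 2 (squares); filled symbols are the brightest probe, whose value stands for the gene. Both Lama3 probes lie above 0 on both arrays, and the Itga6 probes lie apart on array 1.

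The upstream sequence of Lamb3, Itga3 and Itgb6 is shown because these members were beyond the size limit in labelled knockout on each array and have an entry among the RefSeq promoters of GRCm38.p6, which hold 23 of the 37 members. Each run is the 250 bases before the outermost listed start site, on the gene's strand, 5′ to 3′, at chr1:193301744-193301993 (plus strand) for Lamb3, chr11:95076715-95076964 (minus strand) for Itga3 and chr2:60722604-60722853 (minus strand) for Itgb6. Capitals mark the SMAD box CAGAC on either strand.
Lamb3: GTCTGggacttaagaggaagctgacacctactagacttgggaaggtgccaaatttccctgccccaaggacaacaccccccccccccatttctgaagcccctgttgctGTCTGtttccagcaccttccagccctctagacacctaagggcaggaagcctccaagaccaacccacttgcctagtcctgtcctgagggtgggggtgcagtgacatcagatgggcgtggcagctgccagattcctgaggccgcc
Itga3: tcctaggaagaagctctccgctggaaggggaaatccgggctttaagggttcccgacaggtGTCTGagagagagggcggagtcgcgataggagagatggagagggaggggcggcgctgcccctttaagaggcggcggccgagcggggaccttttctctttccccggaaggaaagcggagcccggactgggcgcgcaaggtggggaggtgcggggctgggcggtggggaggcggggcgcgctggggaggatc
Itgb6: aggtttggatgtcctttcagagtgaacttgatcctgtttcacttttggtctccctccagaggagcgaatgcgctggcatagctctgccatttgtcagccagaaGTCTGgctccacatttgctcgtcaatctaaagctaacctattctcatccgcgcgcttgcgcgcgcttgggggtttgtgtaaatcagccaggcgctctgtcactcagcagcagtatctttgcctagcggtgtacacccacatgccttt
The box occurred 2 times before Lamb3, starting 250 and 143 bases before the start site. It occurred 1 time before Itga3 (190 bases) and 1 time before Itgb6 (147 bases). This short motif is common, in 42.2% of all 32851 upstream windows of that length. The GC-rich SMAD site GGCGCC (9.59% of windows), the AP-1 motif TGANTCA (6.75%) and the TATA box TATAAA (12.4%) were searched on both strands and are not in these 3 windows. A match is a stretch of letters and was not tested for binding.

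Beyond the chains themselves, 79 of 82 further genes of the basement membrane and of integrin adhesion were tested, and none passed limma's test, with a median of -0.07. At an unadjusted p under 0.05 there were 8 (10.1%), beside 4.55% of all genes. None was above the size limit on each array, beside 0.861% of all genes, and 1 (1.27%) was below it, beside 0.557%: Smoc2, a matricellular protein of basement membranes, at -0.41 and -0.66. Of 19 other basement membrane genes 4 (21.1%) were above and 9 (47.4%) below 0 on both arrays, beside 21.7% and 24.6% of all genes (median -0.17). Nid1 and Nid2, the nidogens that link laminin to collagen IV, read -0.57 and -0.13, and -0.22 and -0.20. The collagen IV chains Col4a1 and Col4a2 read -0.26 and -0.07, and -0.25 and -0.12, and the perlecan gene Hspg2 -0.10 and -0.26. Frem2, of the Fraser complex, read 0.21 and 0.31.

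Of 29 adhesion linkers 7 (24.1%) were above and 13 (44.8%) below 0 on both arrays, beside the same 21.7% and 24.6%, with a median of -0.05. Talins, which bind integrin beta tails, read -0.43 and -0.18 for Tln1 and -0.28 and -0.24 for Tln2. The filamin gene Flna read -0.24 and -0.24, the tensin gene Tns3 -0.29 and -0.16, and Ilk, the integrin-linked kinase gene, 0.00575 and 0.00253. Of the 4 hemidesmosome genes, Cd151, a tetraspanin partner of laminin receptors, read 0.33 and 0.04, Col17a1 -0.12 and -0.05, Plec -0.02 and -0.11, and Dst -0.08 and 0.05. These 4 genes, listed apart from Itga6 and Itgb4, had a median of -0.04. The 8 other laminin receptor genes, dystroglycan and its associates among them, had a median of -0.01, with the sarcoglycan genes Sgce at 0.20 and 0.14 and Sgca at -0.20 and -0.11, Dag1 at -0.20 and -0.00982 and Bcam at 0.02 and 0.23. Of the 20 integrin ligands 5 (25%) were above and 9 (45%) below 0 on both arrays, again beside 21.7% and 24.6% (median -0.07), with Thbs1 at -0.71 and -0.25, Tgfb3 at -0.22 and -0.34 and Cdh1, also an epithelial marker, at 0.44 and 0.19.

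Lama3, Lamb3, Itga3 and Itgb6 are known from epithelia, and general epithelial markers lay on the same side of 0. All 12 of 12 markers (Cdh1, Epcam, Krt8 and others) were above 0 on both arrays, beside 21.7% of all genes, and none passed the test (limma, adjusted p of at least 0.916). Their median was 0.26 on array 1 and 0.19 on array 2, and their mean normalised log2 intensity was 12.49 and 12.33 in the knockout channels and 12.24 and 12.15 in the control channels. Itga3 and Itgb6 lay within the range of these markers, whose highest value was 0.49 on array 1 and 0.40 on array 2. Lama3 was above that highest value on both arrays and Lamb3 on array 2. The part of the epithelial markers in the member values was not tested.

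**Figure D5:**
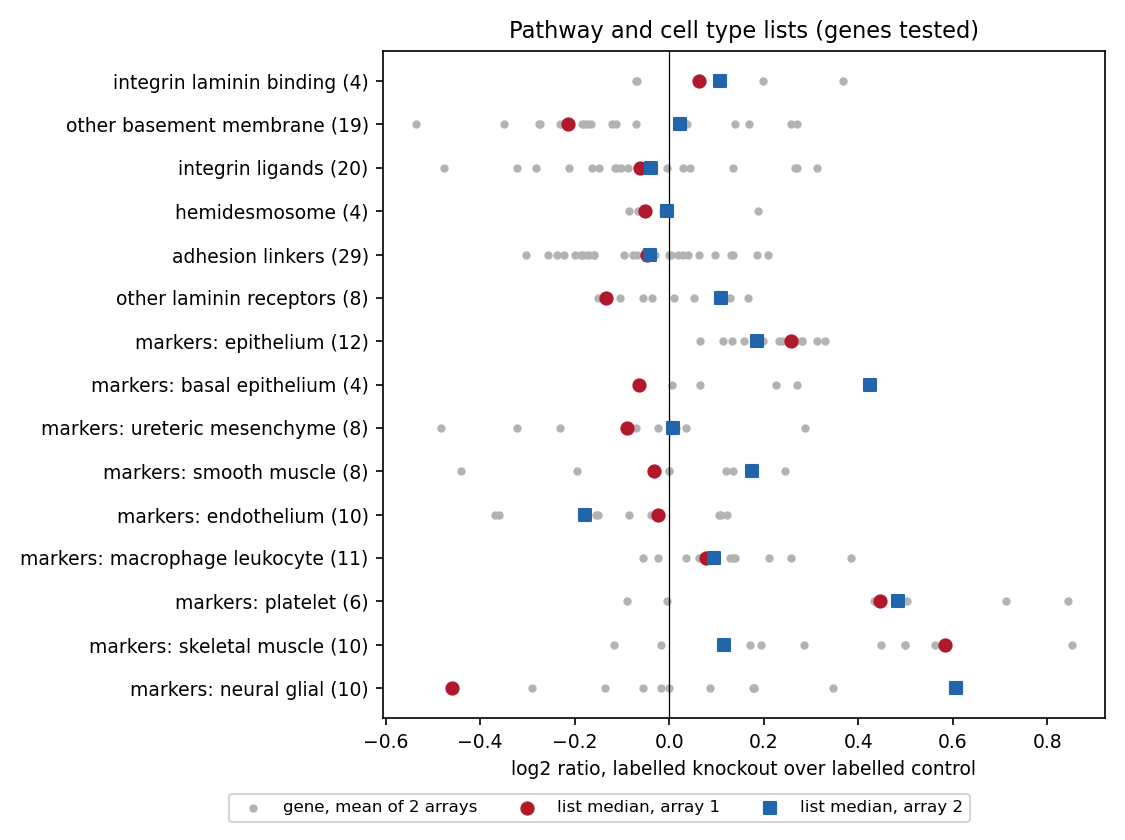
Log2 ratio of each gene (grey, mean of 2 arrays) in the laminin-binding integrin, pathway and cell type lists, with the list median on array 1 (circles) and array 2 (squares) and the number of genes tested in brackets. The platelet list has the rightmost median of all but skeletal muscle on array 1 and all but the neural list on array 2, general epithelium is above 0 for every gene, and the neural list has medians of opposite sign.

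Markers of other cells differed less evenly. Ureteric mesenchyme had a median of -0.09 on array 1 and 0.01 on array 2 over 8 genes. Of these 2 (25%) were above and 4 (50%) below 0 on both arrays, beside 21.7% and 24.6% of all genes. The lowest, Col1a1, a fibrillar collagen chain, read -0.61 and -0.35, and the highest, Dcn, 0.39 and 0.19. Smooth muscle read -0.03 and 0.18 over 8 genes, and endothelium -0.02 and -0.18 over 10. Skeletal muscle was at 0.58 and 0.12 over 10 genes, beside the muscle receptor Itga7 at -0.14 and 0.00479. Neural and glial genes were at -0.46 and 0.61 over 10 genes, that is, apart in opposite directions. None of these lists held a gene that passed the test.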

How the data were processed

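The deposited scanner files hold an intensity per spot and channel, made with Agilent Feature Extraction 10.7.3.1 (submitters' processing notes). The deposited files also hold a log10 ratio of red over green, which was not used. The authors also deposited a score for every probe, a fold with a sign, whose log2 ran opposite to knockout over control of the processed signals (Pearson r across probes -0.822 on array 1 and -0.739 on array 2); it was turned and served as an alternative only. Its scaling is not stated in these sources.

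Mean signals were corrected by normexp (offset 50) and loess, with control spots at weight 0 and outlier-marked spots left out (3.52% and 3.66%). Saturation was found in 0 spots, and each probe is the mean of those of its 4 spots that were not outlier-marked. Probes entered the test with 2 or more spots marked well above background on both arrays in at least 1 genotype (26522 of 39429 probes, 42 of 51 here), and a gene was its brightest kept probe. Channel values are log2 after Aquantile. Names were updated through RefSeq (GRCm38.p6): 28328 probes by accession, 3400 by symbol, 243 by older symbol, 7458 unchanged. Probe coordinates are those of the array on mm9, where exons and untranslated regions were not used.

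Ratios of both arrays were tested against 0 with limma 3.58.1 in R 4.3.3, two-sided, Benjamini-Hochberg adjusted over 20104 genes, with 1 residual and 9.21 prior degrees of freedom. P-values rest on the spread between these 2 arrays, which limma draws towards the spread pooled over all genes tested. The arrays held female and male RNA, so from different embryos, with the dyes exchanged. That spread therefore mixes differences between embryos, sexes and dyes with technical ones, which cannot be told apart. The gene families and lists were chosen with earlier results of these data known. Members were named with all 4 channels if they passed, were beyond the size limit on each array, or belong to short lists of epithelial laminin chains and laminin-binding integrins, or are Itga8, Itgav, Itgb6, Itgb8 or Itgb1; pathway genes if they passed or were among up to 4 of a list with the largest mean and the same sign on both arrays. Other pathway genes were named for their role, and cell type genes as examples, with their values seen. The values of 1 member are not reported here, though counts and medians include it. Figures were drawn with matplotlib 3.10.9.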

Additional observations from a re-analysis of the deposited data

Results flagged for a closer look

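For 4 members the arrays pointed opposite ways, each by more than the median SD between spots of a probe (log2 0.06 on array 1 and 0.07 on array 2). The female array and the male array differed by 0.31 for Itga6 (-0.23 and 0.09), by 0.29 for Itgb5 (-0.14 and 0.15), by 0.23 for Itgav (-0.16 and 0.07) and by -0.23 for Itga10 (0.12 and -0.11), as male minus female. The difference was not tested, since there was 1 array per sex, and the dyes were exchanged between these arrays too.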

How the results depend on the processing

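Over the 31 members (26 under the stricter filter) and 10 alternative settings with a test, 297 of 305 values kept direction and side of the threshold. Much of this count was fixed in advance. The trend prior and the unpaired channels reuse the main log2 ratios, so direction could not change there. A changed filter or the mean over probes can alter a ratio only for members with several probes. No member was under the threshold in the main test. Lama3 passed in 5 of the 10 settings, with 1 member called in each: no background correction (adjusted p = 0.0359), an offset of 0 (0.0312), processed signals (0.0282), deposited values (0.0292) and a prior with trend (0.0265). In the other 5, 0 members passed limma's test (6 to 10 at an unadjusted p under 0.05). The count over all genes, 66, became 115 without background correction, 131 with an offset of 0, 194 with processed signals, 191 with deposited values, 156 with the trend, 29 with the stricter filter, 32 with unpaired channels, and 0 with median centring (347 at an unadjusted p under 0.05) and 0 without a filter (1097). With the mean over probes Itga1 read -0.0292, Itga10 -0.00457 and Itga6 0.11, each of the other sign. Members beyond the size limit on each array numbered 5 or 6 in the settings with both arrays. Itgb7 was added with an offset of 0, processed signals and deposited values, and stood in for Itgb6 without background correction. Without replicate 1 there were 8 such members and without replicate 2 there were 11. These 2 counts follow a looser rule, since only the remaining array had to be beyond the limit. For the other pathway genes, where these alternatives were added after seeing the data, 0 passed in each (1 to 13 at an unadjusted p under 0.05). The main test was already paired, since each array holds 1 knockout and 1 control sample and its ratio is their difference. Only the setting with unpaired channels dropped that pairing. No further pairing was possible, as there is 1 group of ratios. With 2 arrays, the tests take most of their precision from the variance pooled over genes.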
